A study of Rattus norvegicus with 12 samples.

Results

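Ion channel genes were taken by name: every gene whose symbol starts with Kcn (potassium channels), Scn and a digit (sodium channels), Cacn (calcium channels), Clcn (CLC chloride channels and exchangers), Hcn and a digit (pacemaker channels), Trpc, Trpm or Trpv (transient receptor potential channels), Piezo or Asic. These were 90 of the 9721 genes in the table, and the rule reads only the symbol, although the rise of Kcnk3 was known when it was written. The study followed primary astrocytes from the midbrain of newborn Sprague-Dawley rats, wild type and grown in DMEM with 10% fetal bovine serum, after 10 µM PT109B, a compound given by code name alone. Groups were control cells (0 h, no PT109B) and cells at 1.5, 3 and 6 h of PT109B, with 3 RNA-seq libraries in each of the 4 groups. The series title names the conversion of astrocytes into dopaminergic neurons. That outcome was not measured in these libraries. Whether the replicates of a group were grown as separate cultures is not stated in the labels. The p-values therefore rest on the spread between libraries alone, and that spread may be technical.

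Ion channels are membrane proteins that let selected ions pass down their gradients, and most are built from a pore-forming subunit and auxiliary subunits that change its traffic or gating. Astrocytes rest close to the potassium equilibrium potential through inward rectifier and tandem-pore potassium channels, clear potassium released by neurons, and read stretch, acid and lipid signals through Piezo, acid-sensing and TRP channels. Voltage-gated sodium, potassium and calcium channels shape action potentials and transmitter release in neurons, and several of them are also transcribed in cultured glia.

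Sums of deposited counts ran from 9368972 to 12498050 per library, and channel genes took 0.222 to 0.268% of them. After a filter on low counts, 85 of the 90 channel genes and 9491 genes in all were tested. The 5 others (Kcng2, Kcng4, Kcnj3, Kcnmb1 and Trpc4) reached at most 1.44 CPM (counts scaled by TMM to a common library total) in any library. Of 16 astrocyte markers 13 were in the table, with a summed level of 7416 to 11236 CPM in the controls and 5885 to 11849 CPM after PT109B, and 1 of them, Ntsr2, stayed between 0.0856 and 2.97 CPM. In each treated group 1 library stood apart from the other two: replicate 3 at 1.5 h, replicate 3 at 3 h and replicate 1 at 6 h, each nearer to the controls. Over genes, replicate 3 at 3 h correlated with replicate 1 at 6 h at 0.981 (log2 scale) and with its own group at 0.951, and replicate 1 at 6 h correlated with its own group at 0.953 and 0.954. Whether these libraries hold the exposure their labels give was not tested, and the group means below include them. The summed level of 17 microglia markers, all in the table and none of them at 0, was 2539 to 3118 CPM in the controls. It was 341 and 334 CPM in replicates 1 and 2 at 1.5 h but 3262 CPM in replicate 3, with 2388 to 2836 CPM at 3 h and 2085 to 2637 CPM at 6 h. The summed level of 25 mitosis genes was 1941 to 2665 CPM in the controls and 1863 to 2268 CPM at 1.5 h. It was 206 and 182 CPM in replicates 1 and 2 at 3 h against 1531 CPM in replicate 3, and 161 and 182 CPM in replicates 2 and 3 at 6 h against 1465 CPM in replicate 1. In such bulk libraries, fewer cells of a type and less RNA per cell cannot be told apart.

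The tandem-pore potassium channel gene Kcnk3 and the silent potassium subunit gene Kcnf1 rose at all 3 times and had the largest increases among the called channel genes, with Kcnk12, Cacna1i and Trpv4 also among the larger increases at 6 h. The genes that fell included Trpm6, Trpm7, Scn3b, Scn2a, Kcnd2, Cacna2d1 and Asic1. By edgeR with Benjamini-Hochberg adjustment over all genes tested, 3 channel genes were called at 1.5 h, all 3 higher, 17 at 3 h (13 higher and 4 lower) and 28 at 6 h (20 higher and 8 lower). The share called among all genes was 3.32% at 1.5 h (1.95% higher and 1.37% lower), 21.4% at 3 h (13.5% and 7.94%) and 30.5% at 6 h (18.7% and 11.8%). Against this stood 3.53%, 20% and 32.9% of the channel genes, so that as a whole they were called about as often as other genes. Scaling by total count instead of TMM called 26.7% and 31% of all genes at 3 and 6 h. Among channel genes, 7 were then higher and 5 lower at 3 h, and 16 and 12 at 6 h. With none lower at 1.5 h, 4 had an unadjusted p under 0.05 in that direction by edgeR, and DESeq2 called 1 lower. The median log2 change of the channel genes was 0.27 at 1.5 h, 0.11 at 3 h and 0.12 at 6 h, beside -0.01, -0.03 and -0.02 for all genes.

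In all, 30 channel genes were called in at least 1 comparison with control, and these comparisons share the control libraries. Kcnk3 and Kcnf1 were higher at every time. A further 9 were called higher at 3 and 6 h, 9 at 6 h alone and 2 (Kcnc1 and Kcne4) at 3 h alone. Scn2a, Scn3b, Trpm6 and Trpm7 were called lower at 3 and 6 h, and Asic1, Cacna2d1 and Kcnd2 at 6 h alone. Clcn4 was called higher at 1.5 h and lower at 6 h. Without the 3 libraries that stood apart, 50 of 86 channel genes were called at 1.5 h, 54 at 3 h and 68 at 6 h, where all genes were called in 59.2%, 70.9% and 75.1%. Those 3 libraries were, within their groups, the ones nearest to the controls, and the cause of the higher counts was not tested.

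**Figure D1:**
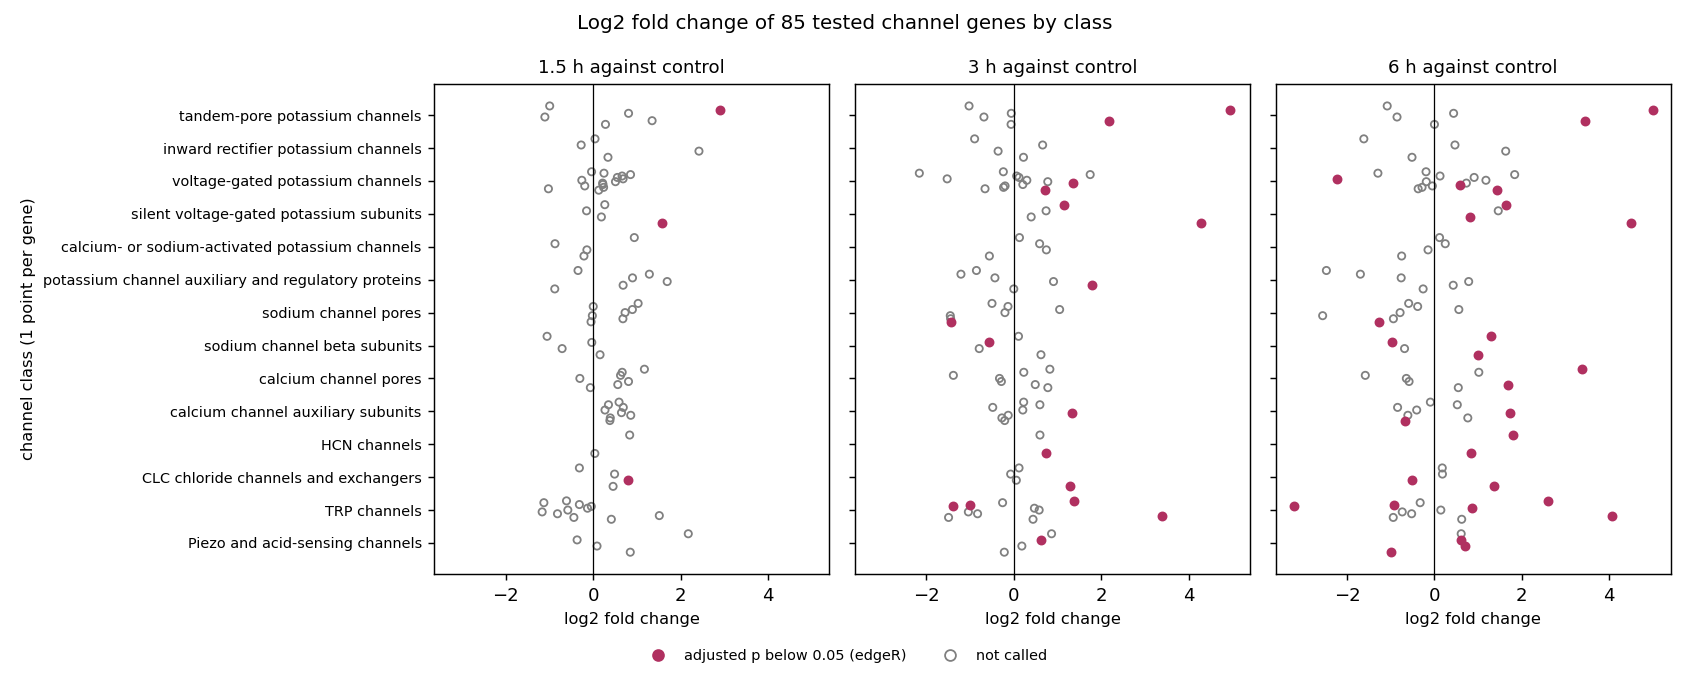
Log2 fold change against control (x axis) of the 85 tested channel genes at 1.5, 3 and 6 h (panels), by class of channel (y axis); each point is 1 gene and filled points passed the adjusted threshold in edgeR. Called genes lie on both sides of 0 and number 3, 17 and 28 over the panels, with Kcnk3 farthest to the right at 3 and 6 h (4.94 and 4.99).

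Among tandem-pore potassium channels, which carry the leak current that sets the resting potential, 2 of 6 rose and the other 4 were not called in any comparison with control. Kcnk3 (ENSRNOG00000009790) encodes TASK-1, an acid-sensitive leak channel. Kcnk3 stood at 2.91, 1.93 and 0.880 CPM in the control libraries, 16.6, 17.9 and 8.56 CPM at 1.5 h, 56.4, 61.8 and 58.8 CPM at 3 h, and 52.4, 63.8 and 67.3 CPM at 6 h. Every treated library lay above every control library, and every 3 and 6 h library lay above every 1.5 h library. The log2 change of Kcnk3 was 2.90 ± 0.37 (SE) at 1.5 h, 4.94 ± 0.39 at 3 h and 4.99 ± 0.39 at 6 h, with edgeR adjusted p of 0.00166, 3.65e-05 and 3.29e-05. From 1.5 to 3 h Kcnk3 rose by 2.04 ± 0.33 on the log2 scale (adjusted p = 0.00506), while from 3 to 6 h the difference was 0.05 ± 0.32 (adjusted p = 0.958). Per length of transcript, Kcnk3 went from 0.708 ± 0.371 FPKM (SD, n = 3) in the controls to 19.6 ± 1.23 FPKM at 6 h.

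Kcnk12 (THIK-2, a tandem-pore subunit related to Kcnk13) was near the lower limit of detection in the controls, at 0.342, 0.214 and 0.264 CPM. Kcnk12 reached 2.65, 2.77 and 3.89 CPM at 6 h, all above the controls, a log2 change of 3.46 ± 0.70 (adjusted p = 0.00442). At 3 h Kcnk12 stood at 0.295, 1.32 and 2.2 CPM, overlapping the controls (log2 change 2.18 ± 0.70, adjusted p = 0.0487), and this call was lost in 14 of 19 alternative settings. Kcnk2, the stretch- and lipid-gated TREK-1, gave 5.05, 4.71 and 3.26 CPM in the controls and 10.3, 10.3 and 2.21 CPM at 1.5 h, where 2 libraries were high and replicate 3 was low. Kcnk10, its relative TREK-2, held between 19.8 and 40.9 CPM in all 12 libraries, with a log2 change of 0.00 ± 0.25 at 6 h (adjusted p = 1).

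Silent voltage-gated potassium subunits form no channel on their own but alter other potassium channels when they assemble with them. Among 6 in the table, 4 passed the filter, and 1 was called higher at 1.5 h, 2 at 3 h and 3 at 6 h. Kcnf1 (Kv5.1) stood at 1.54, 1.14 and 0.792 CPM in the controls, 3.72, 3.06 and 3.73 CPM at 1.5 h, 19.6, 20.8 and 28.3 CPM at 3 h, and 19.6, 28.3 and 31.5 CPM at 6 h. All treated libraries of Kcnf1 lay above the controls, and its steps were 1.58 ± 0.29, 4.29 ± 0.30 and 4.50 ± 0.30 on the log2 scale (adjusted p = 0.0152, 2.76e-05 and 1.68e-05). The 1.5 h call of Kcnf1 was lost in 7 of 20 alternatives, among them the microglia marker level as a covariate (adjusted p up to 0.121), and the 3 and 6 h calls were kept in all 20. Kcns3 (Kv9.3) went from 4.96, 4.50 and 4.05 CPM to 7.77, 13 and 9.53 CPM at 3 h and 13.7, 12.8 and 15.4 CPM at 6 h, where no library overlapped the controls. Its log2 change was 1.16 ± 0.28 at 3 h (adjusted p = 0.0167) and 1.63 ± 0.28 at 6 h (adjusted p = 0.00193). The 3 h call of Kcns3 was lost in 6 of 20 alternatives. Kcng1 (Kv6.1) was called at 6 h alone, at 10.4, 8.72 and 11.9 CPM against 4.45, 5.21 and 8.01 CPM (log2 change 0.81 ± 0.28, adjusted p = 0.0466), and lost that call in 13 of 20 alternatives.

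**Figure D2:**
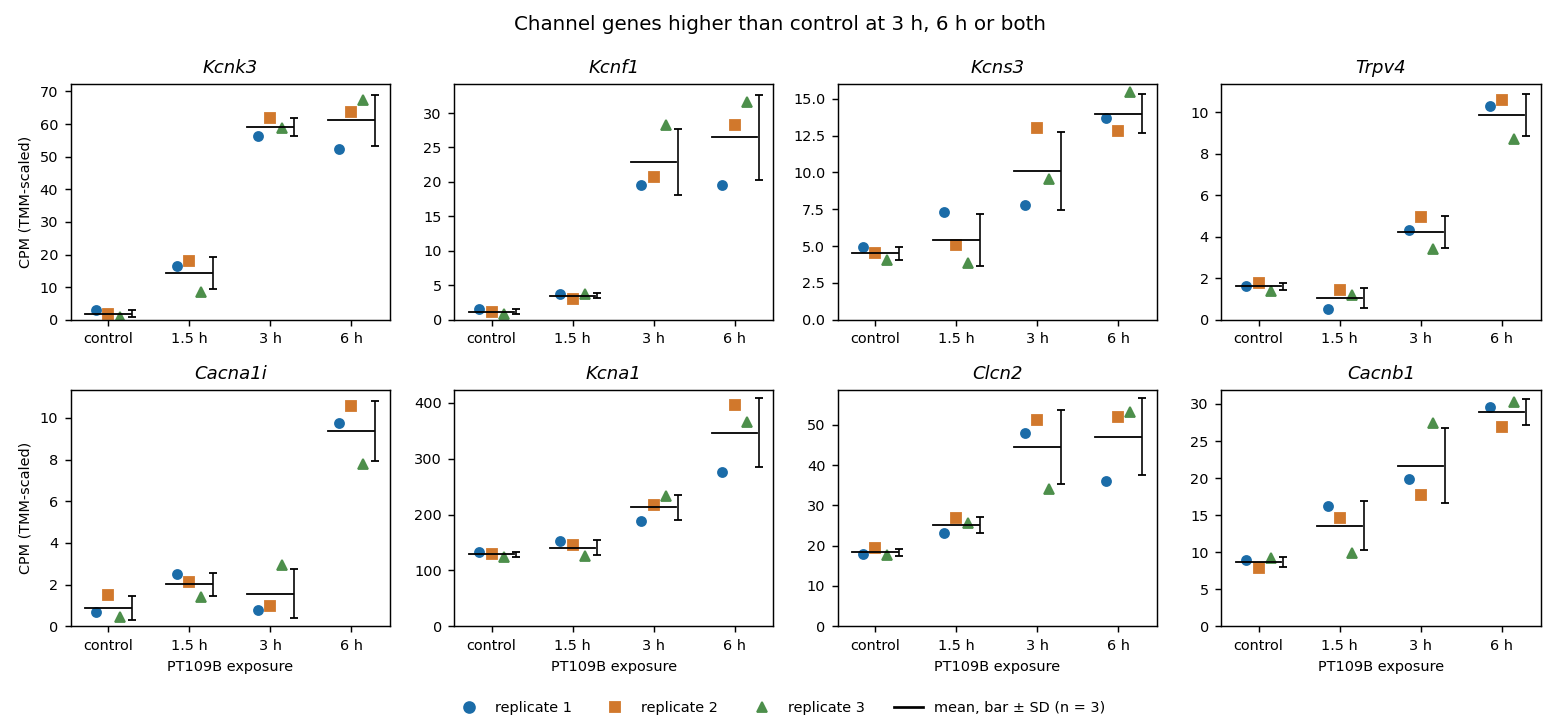
CPM (y axis, linear, own scale per gene) of 8 channel genes that rose, in control cells and at 1.5, 3 and 6 h of PT109B (x axis). Points are the 3 libraries of each group, lines their mean and bars ± SD. Kcnk3 and Kcnf1 are already above all controls at 1.5 h, whereas Cacna1i and Kcna1 are highest at 6 h.

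Promoter sequences were drawn from RefSeq (rat build GRCr8), where 65 of the 90 channel genes matched by symbol, and are shown for 3 genes that were called higher and whose windows differ in the motifs of stimulus-response factors: Kcnf1 with none, Hcn2 with an EGR motif and Trpm4 with a cyclic AMP response element core. Each line gives the 250 bases before the start of the gene, 5′ to 3′ on the gene's strand, from chr6:45693707-45693956 (minus strand) for Kcnf1, chr7:10639458-10639707 (minus strand) for Hcn2 and chr1:104948237-104948486 (minus strand) for Trpm4.
Kcnf1: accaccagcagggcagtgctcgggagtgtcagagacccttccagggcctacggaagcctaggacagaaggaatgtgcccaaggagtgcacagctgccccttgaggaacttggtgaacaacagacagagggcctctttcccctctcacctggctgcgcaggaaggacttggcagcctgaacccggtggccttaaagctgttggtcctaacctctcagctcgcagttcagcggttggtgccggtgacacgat
Hcn2: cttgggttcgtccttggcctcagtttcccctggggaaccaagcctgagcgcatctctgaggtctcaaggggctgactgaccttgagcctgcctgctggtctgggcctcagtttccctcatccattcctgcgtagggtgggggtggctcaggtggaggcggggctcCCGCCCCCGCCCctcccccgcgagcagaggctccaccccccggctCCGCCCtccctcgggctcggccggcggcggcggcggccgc
Trpm4: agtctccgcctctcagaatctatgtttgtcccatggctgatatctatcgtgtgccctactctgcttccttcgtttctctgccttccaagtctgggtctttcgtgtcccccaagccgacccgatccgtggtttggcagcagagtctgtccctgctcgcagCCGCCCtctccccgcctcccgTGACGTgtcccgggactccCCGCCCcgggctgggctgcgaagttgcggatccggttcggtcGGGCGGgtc
Capitals mark matches on either strand to the motifs searched, which were the AP-1 motif TGANTCA, the cyclic AMP response element core TGACGT, the EGR motif GCGNGGGCG, the GC box GGGCGG and the CArG box of serum response factor. The Hcn2 window held 1 EGR match that overlaps a pair of its 3 GC boxes, the Trpm4 window 1 TGACGT core and 3 GC boxes, and the Kcnf1 window no match. Windows of 300 bases (250 before to 50 after the start) were searched, 1 for each matched channel gene. They were set beside all 33469 RefSeq promoter entries, which were not limited to the genes measured here. The EGR motif was in 18.5% of channel gene promoters, 12 of 65, and in 4.98% of all promoters, and the GC box in 52.3% and 33.1%. The AP-1 motif was in 1.54% against 7.33%, the TGACGT core in 1.54% against 7.94%, and the CArG box in none of the 65 against 1.64%. Median GC content of these windows was 66.7% in channel genes and 51.7% over all, which moves with the 2 GC-rich motifs, and its part in their shares was not tested. A match describes letters in a window and not binding, and no match says nothing of the factor.

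Of 14 voltage-gated potassium channel genes, 2 were called higher at 3 h and, at 6 h, 2 higher and 1 lower. Kcna1 (Kv1.1), a low-threshold channel that limits firing in neurons, gave 133, 129 and 124 CPM in the controls, 152, 145 and 125 CPM at 1.5 h, 189, 217 and 233 CPM at 3 h, and 277, 397 and 366 CPM at 6 h. The 3 and 6 h libraries lay above all controls and above all 1.5 h libraries. Its log2 change was 0.13 ± 0.15 at 1.5 h (adjusted p = 0.628), 0.72 ± 0.15 at 3 h (adjusted p = 0.00731) and 1.43 ± 0.15 at 6 h (adjusted p = 0.000162), and from 3 to 6 h Kcna1 rose by a further 0.70 ± 0.15 (adjusted p = 0.0277). The 3 h call of Kcna1 was lost under scaling by total count (adjusted p up to 0.0635 over its alternatives). Kcnc1 (Kv3.1, a fast delayed rectifier) rose at 3 h alone, from 2.65, 3.21 and 3.17 CPM to 4.92, 7.26 and 11.1 CPM, a log2 change of 1.36 ± 0.39 (adjusted p = 0.0338). Kcnc1 lost that call in 9 of 20 alternatives, among them total count scaling. The A-type channel gene Kcnd2 (Kv4.2) fell, from 3.60, 2.21 and 1.94 CPM to 1.03, 0.411 and 0.114 CPM at 6 h, with no overlap (log2 change -2.24 ± 0.71, adjusted p = 0.0351). Kcnd2 lost this call in 5 of 20 alternatives. Its relative Kcnd3 stood at 31.4, 33.3 and 28.8 CPM in the controls and at 33.1, 67.5 and 75.2 CPM at 6 h, where replicate 1 lay at the control level and the call was not made (log2 change 0.91 ± 0.43, adjusted p = 0.124). Other uncalled genes of this class included Kcna2, Kcna3, Kcna6, Kcnc4, Kcnh2, Kcnh4, Kcnq3 and Kcnq5, and log2 changes over the 10 uncalled genes ran from -2.16 to 1.84.

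Inward rectifiers, the channels by which astrocytes take up potassium, were not called in any comparison with control. At an unadjusted p under 0.05 edgeR passed 1 of the 4 tested at 1.5 h and none at 3 or 6 h. Kcnj10 (Kir4.1), the main astrocyte inward rectifier, gave 174, 169.6 and 240 CPM in the controls, 259, 267 and 213 CPM at 1.5 h, 259.7, 253 and 168 CPM at 3 h, and 83.2, 162 and 164 CPM at 6 h. Its 6 h libraries lay below all controls without passing the test (log2 change -0.51 ± 0.27, adjusted p = 0.158), and from 1.5 to 6 h Kcnj10 fell (log2 difference -0.85 ± 0.27, adjusted p = 0.0288). Kcnj2 (Kir2.1) stood at 34.3, 29.2 and 33.0 CPM in the controls and between 41.5 and 54.3 CPM in all 3 and 6 h libraries, above all controls, with an adjusted p of 0.138 at 3 h and 0.255 at 6 h. Kcnj12 (Kir2.2) gave 0.514, 1.14 and 0.0880 CPM in the controls and 3.82, 5.72 and 0.101 CPM at 1.5 h, with replicate 3 again low.

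Calcium- or sodium-activated potassium channels (Kcnma1, Kcnn2, Kcnn3 and Kcnt1) were likewise not called against control by edgeR. At an unadjusted p under 0.05, 2 of the 4 passed at 1.5 h and none at 3 or 6 h. Kcnn3 (SK3, a small-conductance channel) fell short of the threshold at 1.5 h, at 6.04, 9.41 and 17.2 CPM against 15.7, 17.4 and 26.8 CPM (log2 change -0.87 ± 0.32, adjusted p = 0.166). At 3 h Kcnn3 gave 28.8, 30.2 and 31.1 CPM, above all controls, and from 1.5 to 3 h it rose by 1.46 ± 0.33 on the log2 scale (adjusted p = 0.0161). Of the potassium channel auxiliary and regulatory genes 6 of 7 were tested and 1 was called. Kcne4, a single-span subunit that inhibits several Kv channels, gave 9.73, 7.15 and 4.67 CPM at 3 h against 1.97, 2.71 and 1.50 CPM in the controls (log2 change 1.79 ± 0.42, adjusted p = 0.0152). At 6 h Kcne4 stood at 1.63, 2.57 and 4.23 CPM, again overlapping the controls (adjusted p = 0.447). The other 5 tested (Kcnab2, Kcne5, Kcnip1, Kcnip2 and Kcnrg) ranged from -2.47 to 1.69 in log2 change, and none was called.

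Of 7 sodium channel pore genes 1, Scn2a (Nav1.2, an axonal channel of neurons), was called, and it fell. Scn2a stood at 4.79, 6.28 and 4.84 CPM in the controls, 4.23, 7.61 and 3.52 CPM at 1.5 h, 2.16, 1.54 and 2.11 CPM at 3 h, and 3.17, 1.74 and 1.60 CPM at 6 h. All 3 and 6 h libraries were below all controls, with a log2 change of -1.45 ± 0.39 at 3 h (adjusted p = 0.0267) and -1.28 ± 0.39 at 6 h (adjusted p = 0.0307). The 3 h call of Scn2a was lost in 5 of 20 alternatives, and so was the 6 h call. Scn7a, the sodium-level sensor Nax of glia, was the pore gene with the widest split between libraries. It gave 45.9, 45.3 and 60.7 CPM in the controls, 111, 119 and 53.0 CPM at 1.5 h, 132, 133 and 49.9 CPM at 3 h, and 32.4, 86.9 and 105 CPM at 6 h. The low value in each treated group is the library that stood apart, and no call was made for Scn7a (adjusted p = 0.303, 0.136 and 0.387). Other uncalled pore genes included Scn3a, Scn4a, Scn8a and Scn9a.

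The 4 sodium channel beta subunits, single-span proteins that modify gating and also act in cell adhesion, moved in different directions. Scn3b fell, from 117, 127 and 93.5 CPM to 72.8, 67.7 and 86.5 CPM at 3 h and 59.0, 54.6 and 57.6 CPM at 6 h, with no library overlapping the controls. Its log2 change was -0.57 ± 0.15 at 3 h (adjusted p = 0.0238) and -0.98 ± 0.15 at 6 h (adjusted p = 0.00109). Scn4b gave 31.2, 32.6 and 30.2 CPM in the controls, 9.36, 11.1 and 24.8 CPM at 1.5 h, 31.7, 32.3 and 37.2 CPM at 3 h, and 73.6, 79.6 and 77.8 CPM at 6 h. All 3 of its 1.5 h libraries lay below the controls without passing the test (log2 change -1.06 ± 0.29, adjusted p = 0.0793), and at 6 h all lay above them (1.30 ± 0.29, adjusted p = 0.00711). From 3 to 6 h Scn4b rose by 1.19 ± 0.29 (adjusted p = 0.0447). Scn2b was not called and is described with the genes that split by library.

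Calcium channel pores were not called at 1.5 or 3 h by edgeR, with 0 and 1 of 7 at an unadjusted p under 0.05, and at 6 h 2 of 7 rose. Cacna1i (Cav3.3, a low-voltage-activated T-type channel) stood at 0.685, 1.50 and 0.440 CPM in the controls, 2.52, 2.12 and 1.41 CPM at 1.5 h, 0.786, 0.990 and 2.93 CPM at 3 h, and 9.76, 10.6 and 7.77 CPM at 6 h. Its 6 h libraries exceeded all 9 others, with a log2 change of 3.38 ± 0.58 against control (adjusted p = 0.00188) and of 2.56 ± 0.55 from 3 to 6 h (adjusted p = 0.0316). Cacna1b (Cav2.2, the N-type channel of presynaptic terminals) gave 14.6, 9.24 and 9.60 CPM at 6 h against 2.65, 4.86 and 2.90 CPM, without overlap (log2 change 1.68 ± 0.41, adjusted p = 0.0122). A second T-type gene, Cacna1h (Cav3.2), stood at 37.4, 36.4 and 36.7 CPM at 6 h, above the controls at 15.5, 19.0 and 20.2 CPM, and narrowly missed the threshold (log2 change 1.02 ± 0.36, adjusted p = 0.0513). Cacna1a (Cav2.1, the P/Q-type channel) gave 59.1, 54.1 and 33.3 CPM at 3 h against 23.1, 30.3 and 31.9 CPM (log2 change 0.78 ± 0.26, adjusted p = 0.0554). The 5 uncalled pore genes (Cacna1a, Cacna1c, Cacna1d, Cacna1e and Cacna1h) ranged from -1.58 to 1.02.

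Of 8 calcium channel auxiliary genes, 1 was called higher at 3 h, and at 6 h 1 was higher and 1 lower. Cacnb1, a cytoplasmic beta subunit that brings the pore to the membrane, gave 8.90, 7.86 and 9.24 CPM in the controls, 16.2, 14.7 and 9.87 CPM at 1.5 h, 19.9, 17.7 and 27.4 CPM at 3 h, and 29.6, 26.9 and 30.3 CPM at 6 h. All treated libraries lay above all controls, and the log2 change was 0.65 ± 0.22 at 1.5 h (adjusted p = 0.135), 1.32 ± 0.22 at 3 h (adjusted p = 0.00249) and 1.74 ± 0.22 at 6 h (adjusted p = 0.000421). Cacna2d1, the extracellular subunit bound by gabapentin, fell at 6 h, to 17.5, 12.7 and 16.3 CPM from 22.3, 23.9 and 27.9 CPM (log2 change -0.67 ± 0.18, adjusted p = 0.0175). Cacng4, Cacng7 and Cacng8 belong to the group that also accompanies AMPA-type glutamate receptors. Cacng4 stood at 119.7, 131 and 102 CPM in the controls, 233, 248 and 87.1 CPM at 1.5 h, 78.6, 79.7 and 93.9 CPM at 3 h, and 64.0, 60.7 and 71.7 CPM at 6 h. No comparison with control called Cacng4 (at 6 h -0.84 ± 0.31, adjusted p = 0.058), and it fell from 1.5 to 6 h by 1.53 ± 0.31 on the log2 scale (adjusted p = 0.00411). Cacng7, the second channel gene by mean FPKM in the controls, gave 149, 142 and 101 CPM at 3 h against 90.4, 91.1 and 77.7 CPM, without overlap and without a call (0.60 ± 0.23, adjusted p = 0.0798).

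Both HCN genes in the table, which encode pacemaker channels opened by hyperpolarization and cyclic nucleotides, were called higher at 6 h. Hcn2, whose upstream sequence is shown above, gave 13.2, 11.6 and 11.8 CPM in the controls, 12.2, 12.9 and 12.5 CPM at 1.5 h, 22.8, 22.7 and 15.2 CPM at 3 h, and 15.7, 21.9 and 27.4 CPM at 6 h. Its log2 change was 0.73 ± 0.22 at 3 h (adjusted p = 0.0401) and 0.83 ± 0.22 at 6 h (adjusted p = 0.0183), and the 3 h call was lost in 11 of 20 alternatives. Hcn3 stood at 1.20, 1.21 and 0.968 CPM in the controls and at 5.05, 2.98 and 3.89 CPM at 6 h, with no overlap (1.81 ± 0.46, adjusted p = 0.0145).

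Of the 4 CLC genes, Clcn2, a plasma membrane chloride channel of glia, rose, and Clcn4, an endosomal chloride-proton exchanger, was called in both directions. Clcn2 gave 17.9, 19.4 and 17.6 CPM in the controls, 23.0, 26.7 and 25.6 CPM at 1.5 h, 48.1, 51.3 and 34.0 CPM at 3 h, and 36.0, 52.0 and 53.1 CPM at 6 h. Every treated library of Clcn2 exceeded every control, with log2 changes of 0.46 ± 0.19 (adjusted p = 0.203), 1.28 ± 0.19 (adjusted p = 0.00126) and 1.36 ± 0.19 (adjusted p = 0.000624). Clcn4 stood at 26.4, 29.4 and 25 CPM in the controls, 49.9, 54.9 and 34.9 CPM at 1.5 h, 24.8, 30.7 and 28.8 CPM at 3 h, and 17.6, 19.4 and 19.5 CPM at 6 h. It was above all controls at 1.5 h (0.79 ± 0.17, adjusted p = 0.0314) and below all of them at 6 h (-0.52 ± 0.17, adjusted p = 0.0414), and the direct test from 1.5 to 6 h gave -1.30 ± 0.17 (adjusted p = 0.000493). The 1.5 h call of Clcn4 was lost in 11 of 20 alternatives, with adjusted p up to 0.26, and the 6 h call in 7 of 20, with adjusted p up to 0.13. The exchanger genes Clcn6 and Clcn7 were not called against control and ranged from -0.32 to 0.49.

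TRP channels are cation channels opened by lipids, heat, stretch, calcium or store release. Of 11 tested, 2 were called higher and 2 lower at 3 h, and 3 higher and 2 lower at 6 h. Trpv4, a channel of astrocyte endfeet opened by cell swelling, gave 1.63, 1.79 and 1.41 CPM in the controls, 0.503, 1.41 and 1.21 CPM at 1.5 h, 4.33, 4.95 and 3.39 CPM at 3 h, and 10.3, 10.6 and 8.69 CPM at 6 h. Its 3 and 6 h groups did not overlap the controls or each other, with log2 changes of 1.38 ± 0.35 (adjusted p = 0.0206) and 2.60 ± 0.35 (adjusted p = 0.000557), and the step from 3 to 6 h missed the threshold (1.22 ± 0.33, adjusted p = 0.0691). Trpm4, a calcium-activated monovalent cation channel, rose at 6 h, to 30.3, 34.6 and 35.9 CPM from 17.9, 20.7 and 16.9 CPM (0.86 ± 0.18, adjusted p = 0.00612).

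Trpm6 and Trpm7, the channel-kinases that carry magnesium, both fell. Trpm7 stood at 89.5, 79.3 and 82.1 CPM in the controls, 79.1, 71.4 and 51.1 CPM at 1.5 h, 30.6, 37.1 and 56.6 CPM at 3 h, and 63.7, 30.8 and 36.7 CPM at 6 h. The highest value at 3 h and at 6 h is the library that stood apart, and all treated libraries lay below all controls. Its log2 change was -1.01 ± 0.29 at 3 h (adjusted p = 0.0341) and -0.93 ± 0.29 at 6 h (adjusted p = 0.0347), and the summed level of mitosis genes splits the same libraries, whose part in the result was not tested. The 3 h call was lost in 6 of 20 alternatives, among them the replicate block (adjusted p up to 0.126), and the 6 h call in 5 (up to 0.11). Trpm6 went from 5.82, 6.43 and 4.84 CPM to 2.65, 1.43 and 2.38 CPM at 3 h and to 0.599, 0.411 and 0.800 CPM at 6 h, each group below the one before without overlap. Its log2 change was -1.39 ± 0.37 at 3 h (adjusted p = 0.0244) and -3.22 ± 0.41 at 6 h (adjusted p = 0.000443), and from 3 to 6 h Trpm6 fell by 1.83 ± 0.41 on the log2 scale (adjusted p = 0.0384). Trpc1, a partner of other Trpc pores, lay above all controls at 6 h, at 22.3, 23.7 and 24.5 CPM against 14.2, 14.1 and 17.3 CPM, and missed the threshold (0.62 ± 0.22, adjusted p = 0.0527). Trpm3, opened by heat and steroids, stood between 10.8 and 50.4 CPM over all libraries with overlap at every time. Together with Trpc2, Trpc6, Trpm2 and Trpv2 these were not called and ranged from -1.49 to 0.62.

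**Figure D3:**
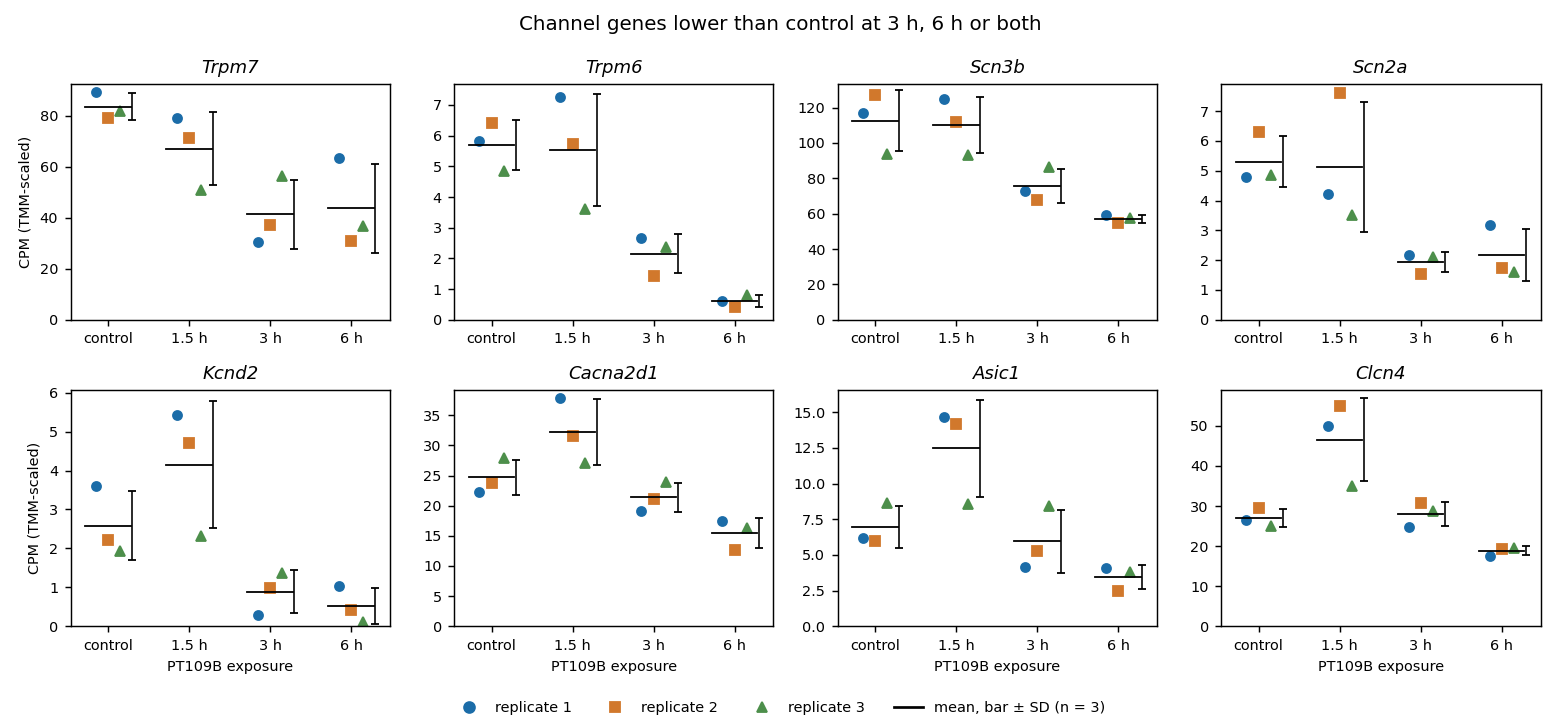
CPM (y axis, linear, own scale per gene) of 8 channel genes called lower at 3 or 6 h, in control cells and at 1.5, 3 and 6 h of PT109B (x axis). Points are the 3 libraries of each group, lines their mean and bars ± SD. Trpm6 falls at each step after 1.5 h, Trpm7 has 1 higher library at 3 and at 6 h (56.6 and 63.7 CPM), and Clcn4 is above its controls at 1.5 h before it falls.

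Of the 4 mechanically gated and acid-sensing channel genes, 3 were called. Piezo1, which opens on membrane tension, stood at 347, 415 and 418 CPM in the controls, 258, 265 and 392 CPM at 1.5 h, 636, 606 and 580.4 CPM at 3 h, and 601, 621 and 590.3 CPM at 6 h. The 3 and 6 h libraries exceeded all others, with log2 changes of 0.63 ± 0.17 (adjusted p = 0.0243) and 0.62 ± 0.17 (adjusted p = 0.0177). Both calls were lost under total count scaling, with adjusted p up to 0.161 at 3 h and 0.0943 at 6 h over the alternatives. Asic1 gave 6.16, 6.00 and 8.62 CPM in the controls, 14.7, 14.2 and 8.56 CPM at 1.5 h, 4.13, 5.28 and 8.43 CPM at 3 h, and 4.11, 2.46 and 3.77 CPM at 6 h, where it was lower than every control (-1.0 ± 0.35, adjusted p = 0.0492). That call was lost in 7 of 20 alternatives, among them limma-voom and the replicate block (adjusted p up to 0.151). Asic2, which assembles with Asic1, was higher at 6 h, at 15.8, 17.1 and 15.4 CPM against 10.0, 10.5 and 9.06 CPM (0.71 ± 0.22, adjusted p = 0.0351), a call lost in 10 of 20 alternatives.

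Several channel genes separated the libraries within a group instead of the groups. Trpm2, a channel opened by ADP-ribose that is known in microglia, gave 12.1, 14.5 and 12.4 CPM in the controls, 0.402, 0.941 and 16.1 CPM at 1.5 h, 1.87, 1.76 and 15.2 CPM at 3 h, and 17, 2.98 and 3.20 CPM at 6 h. The library that stood apart held the control level of Trpm2 in every treated group, and the 2 others were low. Trpv2, a channel abundant in macrophages, gave 82.3, 93.6 and 107 CPM in the controls, 10.2, 9.10 and 111 CPM at 1.5 h, and 61.7 to 106 CPM at 3 and 6 h. Trpc6 (8.13 to 11 CPM in the controls and 1.51, 1.25 and 13.5 CPM at 1.5 h), Kcnk6 (11.7 to 15.3 and 3.42, 2.74 and 14.2 CPM) and Scn2b (17.8 to 19.4 and 7.65, 7.53 and 19.0 CPM) showed the same split, and Kcnab2 (33.9 to 42.1 and 10.4, 11.1 and 38.9 CPM) showed it at 1.5 h. Kcnk13 (THIK-1, a leak channel known in microglia) was lower in the same 2 libraries at 1.5 h, at 1.61, 1.57 and 4.23 CPM against 3.85, 4.93 and 7.13 CPM. None of these 7 was called by edgeR at any time, and the part of the microglia marker level in these values was not tested.

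**Figure D4:**
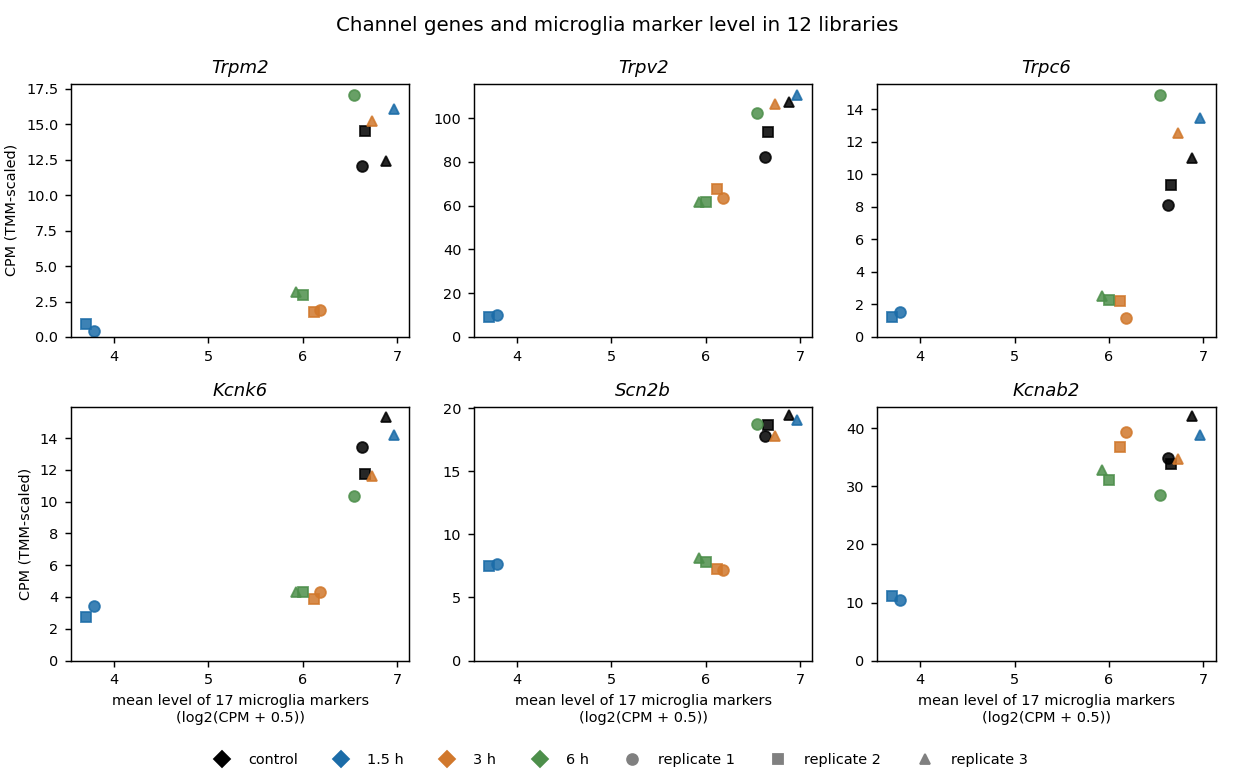
CPM of 6 channel genes (y axis, linear) against the mean level of 17 microglia markers (x axis, log2 of CPM + 0.5) in all 12 libraries, with colour for the group and shape for the replicate. Replicates 1 and 2 at 1.5 h lie at the far left (3.79 and 3.71) with low values of all 6 genes, while the third 1.5 h library (6.97) lies with the controls. Trpm2 is also low in replicates 1 and 2 at 3 h and replicates 2 and 3 at 6 h. There the marker level is 5.93 to 6.18, beside 6.63 to 6.885 in the controls.

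Other channel genes were high in those same 2 libraries at 1.5 h. Piezo2, the touch receptor channel, gave 17, 16.5 and 1.61 CPM at 1.5 h against 2.31, 3.14 and 2.29 CPM in the controls. Cacna1c (Cav1.2, an L-type channel) gave 26.0, 22.5 and 4.53 CPM against 10.9, 11.4 and 8.01 CPM, and Kcnd3 gave 60.3, 59.6 and 17.4 CPM. The summed level of 11 fibroblast and meningeal markers was 5648 and 5864 CPM in replicates 1 and 2 at 1.5 h, 1434 CPM in replicate 3 and 1329 to 1691 CPM in the controls. Other markers also differed in the same 2 libraries. The 11 of 15 endothelial and mural markers in the table summed to 2905 and 3178 CPM, against 869 CPM in replicate 3 and 712 to 1480 CPM in the controls. Their mean level (log2 of CPM + 0.5) was 4.305 and 4.326, against 4.292 and 4.163 to 4.403. Tagln was high in these 2 libraries, at 2016 and 2188 CPM against 410 to 1044 CPM in the controls. Cdh5 was low, at 1.41 and 1.33 CPM against 12.3 to 13.6 CPM. The mean level of 12 of 14 oligodendrocyte lineage markers was 5.18 and 5.27, against 3.78 and 3.69 to 4.02. Their sum was 968 and 1028 CPM, against 776 and 817 to 852 CPM. The part of these cell types in the channel values was not tested. In replicates 1 and 2 at 1.5 h, 52 and 49 of the 85 channel genes lay above every control library, 61.2% and 57.6% against 40.6% and 40.5% of all genes. In replicate 3 only 20 did, 23.5% against 30% of all genes.

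Levels of different channel genes were set side by side in FPKM, which divides by transcript length. In the controls 49 of 90 reached 1 FPKM, 19 reached 5 and 10 reached 10. The order began with Piezo1 at 36.05 ± 3.61 FPKM (SD, n = 3), Cacng7 at 29.8 ± 2.72, Kcnj10 at 27.2 ± 5.37, Trpv2 at 25.2 ± 3.27, Cacng4 at 22.9 ± 2.91 and Scn3b at 21.7 ± 3.43. Clcn7 (19.98 ± 1.37 FPKM), Kcnab2 (17.9 ± 2.40) and, lower, Kcna1 (11.9 ± 0.459) were also among the 10. Piezo1 did not overlap Cacng7, but neighbours from Cacng7 down to Kcnab2 overlapped between libraries. At 1.5 h Piezo1, at 26.5 ± 6.34 FPKM, came after Cacng7, Cacng4 and Kcnj10. At 6 h Piezo1 was first at 48.4 ± 3.70 FPKM, with Kcna1 at 27.8 ± 3.01, Kcnk3 at 19.6 ± 1.23 and Scn3b at 9.66 ± 1.11.

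Comparisons between the treated times added calls of their own, again in shares near those of all genes. From 1.5 to 3 h 13 channel genes were called higher and 8 lower, where 20.3% of all genes were called (12.1% higher and 8.23% lower). From 3 to 6 h 3 were higher and 1 lower, beside 4.05% of all genes (2.33% and 1.72%). From 1.5 to 6 h 18 were higher and 14 lower, beside 37.6% of all genes (20.5% and 17.1%). With the replicate number as a block, 9 in place of 21 were called from 1.5 to 3 h, beside 13.1% of all genes in place of 20.3%. Kcnk3, Kcnn3, Scn4b and Kcna1 were among those kept and Trpm6 among those lost. The 4 calls between 3 and 6 h were Kcna1, Cacna1i and Scn4b higher and Trpm6 lower. All 4 were lost with the replicate block, and all 4 when replicate 1 or 2 at 3 h or replicate 2 or 3 at 6 h was left out, with adjusted p up to 0.118 for Kcna1, 0.14 for Cacna1i, 0.187 for Scn4b and 0.42 for Trpm6. Without the 3 libraries that stood apart, 60, 23 and 63 channel genes were called in these comparisons, where all genes were called in 69.9%, 34.1% and 76%.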

How the data were processed

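Per the labels, total RNA was extracted with TRIzol from midbrain astrocytes and made into 12 libraries with an NEBNext Ultra kit. The authors deposited 1 table with estimated counts and FPKM per gene and library. The submitters' processing notes name StringTie 2.2.1. For aligner and genome build, the sources used here give nothing. Estimated counts as deposited by the authors (9.49% of the values not whole) were rounded to whole numbers. FPKM values, deposited by the authors per transcript length and sequencing depth, were used for levels per length and in alternative fits. Sums of counts per library ran from 9368972 to 12498050. SD values describe the 3 libraries of a group. SE values cover counting error and a spread between libraries estimated per gene over all 4 groups together, not within 1 group.

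Counts were scaled by TMM, filtered by filterByExpr (230 genes left out) and tested in edgeR 4.0.16 (R 4.3.3) by robust quasi-likelihood F tests in 1 fit of all 4 groups, with Benjamini-Hochberg adjustment over 9491 genes at 0.05. CPM values are TMM-scaled. Log2 changes are fitted with a prior count of 0.125, so folds of genes near 0 depend on it. Each SE of a log2 change was derived as its absolute value divided by the square root of the F statistic. Alternatives used DESeq2 1.42.0, limma 3.58.1, other scalings and filters, FPKM, a replicate block, only the 2 groups compared, a microglia covariate, and leaving out libraries. Counts were also simulated independently per library around 1 mean per gene, with 100 genes changed 2-fold and 100 changed 4-fold at 3 h (9416 genes). Of these, 36% and 79% were recovered, with 5 false calls. No simulated library stood apart and far fewer genes changed than were called at 3 h, so these rates do not describe the real comparison. The labels give no batch.

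The members, the gene lists and the markers were chosen with earlier results of these data known. Named by rule were called genes with at least 1 CPM, up to 12 in each direction per comparison, the 12 highest by FPKM and 42 set genes (9 of them not in the table). Of other ion transport lists, up to 4 called and 2 uncalled genes each were named at 3 h. Other genes, among them those that split by library (Trpc6, Kcnk6, Scn2b), Kcnn3, Kcnj12 and Kcnd3, were chosen after their values were seen. The table holds a part of the rat's genes, and other channel genes were not analysed here. A few members count in the totals but are not reported here by name.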

Additional observations from a re-analysis of the deposited data

Results flagged for a closer look

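The effect of PT109B against control differed between 2 times for 23 of the genes named by rule. The log2 difference between the times was tested directly by edgeR. Each gene is given here by its comparison with the smallest adjusted p. For Cacna1a that was 1.5 to 3 h, at 0.84 (adjusted p = 0.0452), a call lost in 15 of 20 alternatives (adjusted p up to 0.176). For the others it was 1.5 to 6 h. The potassium channel genes moved up for Kcnk3 (2.09), Kcnf1 (2.92), Kcnk12 (2.11), Kcns3 (1.37) and Kcna1 (1.30), and down for Kcnd2 (-2.93) and Kcnj10 (-0.85). Of sodium channel genes among the 23, Scn2a (-1.23) and Scn3b (-0.95) moved down. Scn4b, which was not named by that rule, moved up (2.35, edgeR adjusted p = 0.00044). Of all tested sodium channel genes, edgeR called 0 pores higher and 3 lower, and 2 beta subunits higher and 1 lower, from 1.5 to 6 h. Among calcium channel genes Cacna1i (2.21) and Cacnb1 (1.09) moved up, and Cacna2d1 (-1.05), Cacnb3 (-0.68) and Cacng4 (-1.53) moved down. Chloride genes gave Clcn2 (0.90) and Clcn7 (0.49) upward and Clcn4 (-1.30) downward, and Hcn2 gave 0.79. Of TRP, Piezo and acid-sensing genes, Trpv4 (3.21) and Piezo1 (0.99) moved up, and Trpm6 (-3.18) and Asic1 (-1.85) moved down. The edgeR adjusted p of these 22 ran from 0.000114 (Kcnf1) to 0.0303 (Scn2a). From 1.5 to 6 h 37.6% of all genes were called. Of 20 alternatives, the call was lost in 7 for Scn2a, 6 for Clcn7, 5 for Hcn2, 4 for Kcnj10, 3 for Cacnb3 and 3 for Kcnk12. For Scn2a, Clcn7, Kcnj10 and Cacnb3 the microglia covariate was among these.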

How the results depend on the processing

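No call of a channel gene against control changed direction in any alternative. Of 48 such calls, 20 were kept in all alternatives (15 genes, among them Kcnk3 at all times, Kcnf1, Clcn2 and Cacnb1 at 3 and 6 h, and at 6 h Trpv4, Kcns3, Trpm6, Kcnk12, Trpm4, Scn4b, Scn3b, Cacna1i and Kcna1), 14 were lost in 1 to 5 and 14 in more. At 1.5 h, where 3 channel genes were called, DESeq2 called 6, a fit of only the 2 groups 1 and the microglia covariate 1. Of all genes, these 3 settings called 8.67%, 2.57% and 1.9%, in place of 3.32%. At 3 h, log2(FPKM + 1) called 11 in place of 17, and 29.5% of all genes in place of 21.4%. From 1.5 to 3 h (21 called), only the 2 groups gave 2 and the covariate 11, beside 0.823% and 12.5% of all genes in place of 20.3%. From 3 to 6 h (4 called), DESeq2 gave 9, only the 2 groups 1 and the covariate 9. All genes were called there in 9.12%, 0.0765% and 10.6%, in place of 4.05%. From 1.5 to 6 h (32 called), only the 2 groups gave 21, beside 23.2% of all genes in place of 37.6%. Without the 3 libraries that stood apart the counts were 50 at 1.5 h, 54 at 3 h, 68 at 6 h, 60 from 1.5 to 3 h, 23 from 3 to 6 h and 63 from 1.5 to 6 h. Of all genes, 59.2%, 70.9%, 75.1%, 69.9%, 34.1% and 76% were then called, in the same order. Total count scaling moved the median of all genes to -0.34 at 3 h and -0.24 at 6 h, and the calls to 7 higher and 5 lower at 3 h and 16 and 12 at 6 h (13 and 4, 20 and 8 with TMM), and from 1.5 to 3 h to 7 and 8 (13 and 8). Depth from counts and FPKM gave 8 and 5, 16 and 12, and 7 and 8, and upper quartile scaling 8 and 8 from 1.5 to 3 h. In these 3 comparisons TMM called 21.4%, 30.5% and 20.3% of all genes, and total count scaling 26.7%, 31% and 21.6%. Depth from counts and FPKM called 25.2%, 31.1% and 20.6%, and upper quartile scaling 20.4% from 1.5 to 3 h. The cause of these moves was not tested.

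Leaving out 1 library at a time gave 1 to 28 channel gene calls at 1.5 h, 6 to 26 at 3 h and 17 to 31 at 6 h. Between times it gave 4 to 42 from 1.5 to 3 h, 0 to 9 from 3 to 6 h and 20 to 43 from 1.5 to 6 h. Of all genes, these fits called 1.2 to 30%, 8.88 to 38.7%, 18.2 to 40.5%, 4.43 to 42.4%, 0.429 to 8.25% and 23.7 to 52.3%, in the same order. The 28 came without replicate 3 at 1.5 h, and 1 remained without control replicate 2 or 3 or 1.5 h replicate 1. The 26 came without replicate 3 at 3 h, and 6 to 9 without any control or either other 3 h library. The 0 came without replicate 1 or 2 at 3 h or 2 or 3 at 6 h, with 15 or 16 channel genes at an unadjusted p under 0.05 in edgeR. Libraries of the same replicate number correlated, in their deviations from the group means, from -0.716 to 0.673 over 18 pairs, and 7 of 12 were closest to their own number. Each pair exceeded 0.1 between control and 1.5 h (0.253, 0.415 and 0.495) and between 1.5 and 3 h (0.219, 0.182 and 0.242), but not in the other comparisons. The replicate block gave 3, 15 and 26 channel gene calls at 1.5, 3 and 6 h, 9 from 1.5 to 3 h and 28 from 1.5 to 6 h. From 3 to 6 h it gave 0, with 17 at an unadjusted p under 0.05 in edgeR. Of all genes, the block called 2.12%, 16.9%, 27.4%, 13.1%, 34.8% and 1.68%, in the same order. Depth limits genes near 1 CPM.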

Other observations

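Beyond the channel families taken by name, genes that act on the same ions were counted in the same edgeR fits. Of 3 RGK GTPases in the table, inhibitors that keep voltage-gated calcium channels from the membrane, Gem rose at all 3 times, from 19.5 ± 6.35 CPM (SD, n = 3) to 67.7 ± 23.1, 91.3 ± 9.07 and 59.8 ± 17.7 CPM (log2 change 1.79 ± 0.31, 2.22 ± 0.31 and 1.61 ± 0.30). At 6 h Rem2 rose as well (2.32 ± 0.64, adjusted p = 0.0208) and Rrad fell (-1.47 ± 0.47, adjusted p = 0.0373). Of 26 tested pore genes outside the name rule, 7 were higher and 1 lower at 3 h, and 8 and 1 at 6 h, beside 13.5% and 7.94% of all genes at 3 h and 18.7% and 11.8% at 6 h. Panx1, a large-pore channel that releases ATP, went from 23.7 ± 3.19 to 70.5 ± 21.1 CPM at 3 h (1.57 ± 0.21, adjusted p = 0.00082). Lrrc8d, a subunit of the volume-regulated anion channel, went from 94.2 ± 9.72 to 253 ± 51.4 CPM (1.43 ± 0.18, adjusted p = 0.000529), and its relative Lrrc8b from 53.5 ± 4.42 to 95.8 ± 6.50 CPM (0.84 ± 0.12, adjusted p = 0.000901). The gap junction gene Gjb2 rose from 1.26 ± 0.188 to 3.63 ± 0.320 CPM (1.52 ± 0.31, adjusted p = 0.00712). The water channel gene Aqp4, at 1543 ± 514 CPM in the controls and 1170 ± 386 CPM at 3 h, was not called (adjusted p = 0.376).

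Of 24 tested ligand-gated channel genes, none was called at 1.5 or 3 h by edgeR, with 7 and 3 at an unadjusted p under 0.05. At 6 h 1 was higher and 3 lower, and 15 were lower at 6 h than at 1.5 h, where 17.1% of all genes were. Single neuron and oligodendrocyte markers went both ways between these times. Elavl3 gave 18.1, 16.7 and 3.93 CPM at 1.5 h and 2.74 to 4.71 CPM at 6 h, and Sox10 gave 37.5, 38.8 and 1.81 CPM and 1.71 to 4.45 CPM. Nefl gave 24.15, 19.6 and 87.4 CPM and 96.4 to 324 CPM, and Olig2 49, 60.7 and 51.2 CPM and 92.1 to 130 CPM. The 14 neuron markers summed to 522 to 617 CPM at 1.5 h and 478 to 1197 CPM at 6 h. Their mean level (log2 of CPM + 0.5) was 4.589, 4.565 and 3.896 at 1.5 h and 3.896 to 4.001 at 6 h. For 12 oligodendrocyte lineage markers the sums were 776 to 1028 CPM and 745 to 1073 CPM. On the same log2 scale their mean level was 5.18, 5.27 and 3.78 at 1.5 h and 3.42 to 3.73 at 6 h. The part of these markers in the count was not tested. Of 26 pumps, exchangers and cotransporters, 3 were higher and 1 lower at 3 h, beside the same shares of all genes. The plasma membrane calcium pump gene Atp2b1 went from 222 ± 22.7 to 352 ± 58.3 CPM at 3 h and 512 ± 42.8 CPM at 6 h (1.21 ± 0.14, adjusted p = 0.000273). The sodium-calcium-potassium exchanger gene Slc24a2 fell from 5.16 ± 0.437 to 0.605 ± 0.454 CPM at 6 h (-3.07 ± 0.58, adjusted p = 0.00332). Among 20 channel partners and regulators, Rest, a repressor of neuronal genes that include sodium channel genes, rose from 45.3 ± 1.80 to 79.4 ± 7.15 CPM at 3 h (0.81 ± 0.11, adjusted p = 0.000767). The scaffold gene Akap5 fell from 2.87 ± 1.13 to 0.788 ± 0.422 CPM at 3 h (-1.87 ± 0.56, adjusted p = 0.0376).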
